A study of Mus musculus with 6 samples.

Results

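Podxl, Ctse, Hk1 and Ndufa4l2 are 4 genes that have been grouped as genes of an early, progenitor stage of red cell formation, and their transcripts were counted in single cells of mouse blood-forming tissue with Xenium, a method that images individual RNA molecules in a tissue section. All 4 were among the 477 genes of the panel used for E14.5 fetal liver, P8 bone marrow and both spleens, whereas Podxl and Hk1 alone were among the 5050 genes of the panel used for E13.5 fetal liver and 89-week bone marrow. The genes were chosen on measured values of these sections, namely their co-detection with Kit and Slc4a1, their level in each section and their level in the PHZ spleen against the NC spleen, and those values are given here as a description. Each of the 4 passed the filters on low counts in every section that measured it.

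The tissue came from wild-type C57BL/6 mice, and each of the 6 conditions was represented by 1 section of 5 µm, so no difference between conditions had a replicate and none was tested. The sections were fetal livers of embryonic day 14.5 and of embryonic day 13.5, bone marrow of postnatal day 8, bone marrow of a mouse 89 weeks old, the spleen of an adult mouse (NC) and the spleen of a mouse treated with phenylhydrazine (PHZ). Phenylhydrazine lyses red cells and was injected intraperitoneally at 40 mg/kg, 2 times per day for 2 days. The labels gave the NC animal as adult and wild type and named no vehicle for it. The E14.5 liver and P8 marrow shared 1 slide, both spleens shared another, and the sections on the larger panel were run later with another software version, so that levels on the 2 panels cannot be set against each other.

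After cells with fewer than 5 detected genes were left out, the sections held between 5254 and 140707 cells, with a median of 62 to 191 gene transcripts per cell. No pair of sections shared more than 6 cell barcodes. Cells were put into marker classes by the list of marker genes with the highest summed count, with at least 3 counts required. Erythroid-marker cells, which had more counts of a list of 9 erythroid genes, among them Klf1, Gata1, Hemgn, Epor, Rhd, Fech and Slc25a37, than of any other list, made up 84.3% of cells in E14.5 liver, 49.6% in P8 marrow, 2.39% in NC spleen and 51.9% in PHZ spleen. In the E14.5 liver, hepatocyte-marker cells were 4.23% of cells, and the class of a cell there can include transcripts of its neighbours, because a cell was outlined by expanding its nucleus.

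Red cells form through stages. Progenitors carry Kit, the receptor for stem cell factor, lose it as they become erythroblasts, and gain Slc4a1, the band 3 anion exchanger of the red cell membrane. Podxl encodes podocalyxin, a sialomucin of the CD34 family that is also known from endothelium and the podocytes of the kidney. Ctse encodes cathepsin E, an intracellular aspartic protease. Hk1 encodes hexokinase 1, which catalyses the opening step of glycolysis and is the main hexokinase of red cells. Ndufa4l2 encodes a mitochondrial protein related to NDUFA4 and is known as a target of the hypoxia-inducible factor HIF-1. Spleen erythropoiesis in the mouse expands under anaemia.

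The level of a gene in a section was expressed as counts per 1000000 gene transcripts (CPM), and it is compared below between sections or cell groups of the same gene only, since the number and efficiency of probes differ between genes. Podxl had a level of 5239 CPM in E14.5 liver, 577 in P8 marrow, 766 in NC spleen and 5385 in PHZ spleen. It was thus high in the E14.5 liver and the PHZ spleen and low in the other two, with a 9.34-fold span. Even at its lowest level, in P8 marrow, the exact 95% Poisson interval was narrow, from 558 to 595 CPM. Intervals of this kind cover counting error only and say nothing of the spread between animals. At least 1 Podxl count was found in 35.4%, 5.03%, 4.79% and 25.5% of cells of these sections, in the same order.

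Ctse had another order. Its level was 2124 CPM in E14.5 liver, 20109 in P8 marrow, 2942 in NC spleen and 32865 in PHZ spleen, a 15.5-fold span in which the fetal liver was lowest. The share of cells with a Ctse count was 27.2%, 53.9%, 13.6% and 64.9%. The fetal liver and the marrow, which both held many erythroid-marker cells, therefore stood far apart for Ctse, and the fetal liver lay below even the NC spleen.

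Hk1 and Ndufa4l2 varied less. Hk1 had 12739.7 CPM in E14.5 liver, 6504 in P8 marrow, 4557 in NC spleen and 14422 in PHZ spleen, a 3.16-fold span, and was found in 72.6%, 44.0%, 32.0% and 59.0% of cells. Ndufa4l2 had 2858, 1686, 2331 and 3259.96 CPM, a 1.93-fold span, and was found in 35.4%, 15.6%, 19.1% and 28.8% of cells. In CPM, the PHZ spleen was the highest of the 4 sections for all 4 genes. By counts per cell or share of cells, E14.5 liver was highest for all but Ctse. Kit, by contrast, was highest in E14.5 liver (2778 CPM) and was 1392 CPM in P8 marrow, 1934 in NC spleen and 1924 in PHZ spleen, while Slc4a1 was 64062, 45250.1, 3643 and 40968 CPM.

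**Figure D1:**
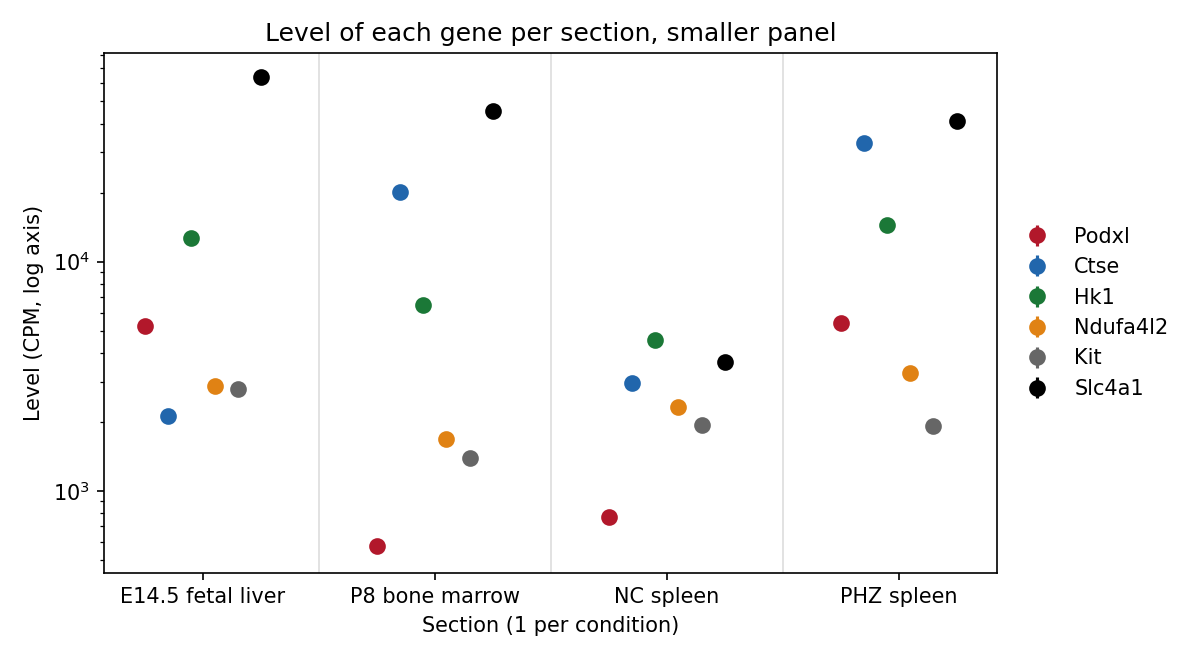
Level of each gene in the 4 sections measured with the 477-gene panel, in CPM on a log axis, with exact 95% Poisson intervals that are smaller than the points. Podxl is at 5239 and 5385 CPM in E14.5 liver and PHZ spleen and at 577 and 766 CPM in P8 marrow and NC spleen, and Ctse is highest in P8 marrow (20109 CPM) and PHZ spleen (32865 CPM).

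The promoter of Hk1 is shown because Hk1 has 2 annotated starts whose windows differ in the letters that erythroid transcription factors are known to recognise. Of the 4 genes, 1 was found in the table of promoters used here (RefSeq, GRCm38.p6). The 250 bases before each start are given 5′ to 3′ on the minus strand, at chr10:62379909-62380158 and chr10:62340422-62340671. Capitals mark GATA (TATC on the other strand), the core recognised by GATA factors, and CCACACCC (GGGTGTGG on the other strand), a KLF1-type box.
Hk1 start 1: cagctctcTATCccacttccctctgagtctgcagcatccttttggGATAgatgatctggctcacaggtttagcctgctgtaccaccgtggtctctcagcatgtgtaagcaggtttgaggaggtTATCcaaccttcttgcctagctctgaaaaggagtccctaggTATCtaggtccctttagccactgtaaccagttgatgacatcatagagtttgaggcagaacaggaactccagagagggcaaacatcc
Hk1 start 2: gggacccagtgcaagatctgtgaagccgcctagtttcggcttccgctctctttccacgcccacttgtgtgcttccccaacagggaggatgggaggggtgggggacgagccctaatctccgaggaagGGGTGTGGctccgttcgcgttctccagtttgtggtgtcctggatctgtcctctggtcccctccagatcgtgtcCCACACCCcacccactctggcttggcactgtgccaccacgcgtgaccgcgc

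The window of start 1 held 4 matches of GATA and none of CCACACCC, and that of start 2 held 2 of CCACACCC and none of GATA. Over 32851 starts of the same table and length, 53.6% held GATA and 3.20% held CCACACCC. CACCC, which overlaps CCACACCC, had 0 and 4 matches and was in 52.0% of windows. AGATAA and TGATAA, which contain GATA, had none in either window and were in 9.99% and 7.94% of all windows, and ACGTG, the core of the HIF element, had none and was in 16.6%. Each motif was searched on both strands. The counts of a section do not tell which start a Hk1 transcript used, and a match is a run of letters, not a bound site.

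On the 5050-gene panel, Podxl had 554 CPM (515 to 595) in E13.5 liver and 30.2 CPM (27.3 to 33.3) in 89-week marrow, with a count in 10.5% and 0.252% of cells. Podxl was thus low in marrow against fetal liver on this panel too. Hk1 had 557 CPM (518 to 598) in E13.5 liver and 613 CPM in 89-week marrow. As in P8 marrow against E14.5 liver, the 89-week marrow cells were shallower than the fetal liver cells (a median of 62 against 191 transcripts).

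A share of cells with a count can contain stray counts, so the shares in marker classes other than the erythroid class were set beside it. Whether their counts were stray or their own was not tested. Lymphoid-marker cells of NC spleen had a Podxl count in 1.56% of cells and a Ctse count in 10.3%, at a median of 80 transcripts per cell, against 4.79% and 13.6% in the whole section at a median of 84. In PHZ spleen they had a Podxl count in 2.30% and a Ctse count in 26.0% of cells, at a median of 64 against 104 in the section. The Ctse share in NC spleen as a whole was hence little above that of its lymphoid-marker cells. Cartilage- or muscle-marker cells of P8 marrow had a Ctse count in only 1.22% of cells at a median of 97 transcripts, against 53.9% at 112 in the section. The part of stray Ctse counts in the differences between sections was not tested.

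In the 4 sections of the 477-gene panel, Podxl was the member with the largest excess of co-detection with Kit over all counts. These ratios ran over cells of all classes. Erythroid-marker cells held 86.2% of Kit counts in E14.5 liver, 60.5% in P8 marrow, 5.63% in NC spleen and 67.8% in PHZ spleen. A Kit count was found in 56.9% of granulocyte-marker and 19.8% of erythroid-marker cells of E14.5 liver. In PHZ spleen it was found in 35.4% of endothelial-marker and 14.4% of erythroid-marker cells. The part of other classes in the ratios was not tested. In E14.5 liver, 35.8% of the cells with a Podxl count also had a Kit count, against 20.4% of all cells, which is 1.76 times the share expected from independent detection. The ratio was 2.40 in P8 marrow, 1.47 in NC spleen and 2.11 in PHZ spleen. Deeper cells have more of every transcript, so each cell was also thinned at random to 50 transcripts, which left out between 2217 and 16928 shallower cells in each of these 4 sections. The thinned ratios of Podxl with Kit were 2.19 in E14.5 liver, 2.17 in P8 marrow, 1.08 in NC spleen and 2.12 in PHZ spleen, so that the excess in NC spleen was nearly absent once depth was equal.

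The other members were found with Kit less often by this measure. For Hk1 the thinned ratios were 1.42, 1.60, 0.980 and 1.31 in E14.5 liver, P8 marrow, NC spleen and PHZ spleen, and the ratios over all counts were 1.19, 1.48, 1.17 and 1.33. For Ndufa4l2 they were 1.55, 1.25, 0.963 and 1.32 thinned and 1.51, 1.38, 1.18 and 1.57 over all counts. Ctse stood nearest to independence from Kit once thinned, with ratios of 1.19, 1.04, 0.988 and 1.00, whereas its ratios over all counts were 1.34, 1.23, 1.26 and 1.16, above those of Hk1 in E14.5 liver and of Hk1 and Ndufa4l2 in NC spleen.

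With Slc4a1, Ctse had the highest thinned ratio of the 4 genes in each of these sections. The thinned ratios of Ctse with Slc4a1 were 1.04 in E14.5 liver, 1.47 in P8 marrow, 3.26 in NC spleen and 1.36 in PHZ spleen, and those of Podxl were 0.911, 0.756, 0.854 and 1.23. Over all counts, the ratios were 1.02, 1.41, 2.81 and 1.33 for Ctse and 0.999, 0.896, 1.27 and 1.37 for Podxl, which then was above Ctse in PHZ spleen. In P8 marrow, 96.9% of the cells with a Ctse count had a Slc4a1 count, against 68.7% of all cells. In the E14.5 liver 97.1% of all cells had a Slc4a1 count, so that the unthinned ratio there could hardly leave 1. Thinned, Hk1 had ratios of 0.999, 1.20, 0.890 and 1.24 with Slc4a1 and Ndufa4l2 had 0.957, 0.643, 0.745 and 1.05, against 1.01, 1.21, 1.12 and 1.26 for Hk1 and 1.00, 0.795, 1.04 and 1.19 for Ndufa4l2 over all counts.

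The same contrast was then measured as a level within erythroid-marker cells alone. There and in all marker classes, the level was taken as CPM without Kit, Slc4a1 and Hbb-bt in the total, so that the genes used to split the cells did not enter it. Podxl had 13656 CPM in the 19544 Kit-positive erythroid-marker cells of E14.5 liver and 3840.2 CPM in the 79369 Kit-negative ones, a 3.56-fold difference. In PHZ spleen the levels were 19389 and 6699 CPM, a 2.89-fold difference. P8 marrow had 1428 against 334 CPM and NC spleen had 827 against 380 CPM, the latter from 54 and 91 Podxl counts. Podxl was thus higher in the Kit-positive cells of all 4 sections, and its log2 ratio ran from 1.12 (0.61 to 1.62) in NC spleen to 2.10 (1.94 to 2.26) in P8 marrow.

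Hk1 and Ndufa4l2 had the same direction, at a smaller size than Podxl except for Hk1 in NC spleen. The log2 ratio of Kit-positive over Kit-negative cells for Hk1 was 0.89 in E14.5 liver, 0.69 in P8 marrow, 1.19 in NC spleen and 0.57 in PHZ spleen. For Ndufa4l2 it was 0.75, 0.85, 0.86 and 0.54. These intervals all lay above 0.

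Ctse did not share this direction outside the fetal liver. Its level was 3377 CPM in Kit-positive and 2662 CPM in Kit-negative cells of E14.5 liver, a log2 ratio of 0.34, but in P8 marrow it was 34393 against 47334 CPM (log2 ratio -0.46) and in PHZ spleen 48154 against 60281 CPM (log2 ratio -0.32). In NC spleen the ratio was 0.03, with an interval from -0.04 to 0.09. There it was not alike at few and at many Slc4a1 counts, as given below. By Kit, the Ctse values of P8 marrow and PHZ spleen therefore go against the name progenitor-stage gene, and those of E14.5 liver do not. Kit was among the genes used to choose the 4, so these ratios are a description and give the name no support.

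Along Slc4a1, over all erythroid-marker cells, Ctse and the other 3 genes parted in each of the 4 sections of the 477-gene panel. Cells with 5 or more Slc4a1 counts had more Ctse than cells with 0 to 4, with log2 ratios of 0.16 in E14.5 liver, 0.83 in P8 marrow, 1.71 in NC spleen and 0.63 in PHZ spleen. Taken over all erythroid-marker cells, the Ctse values by Slc4a1 thus go against the name progenitor-stage gene in all 4 sections. In E14.5 liver the difference was seen in Kit-negative cells only, as the intervals overlapped in Kit-positive ones (given below). Podxl was lower in cells with 5 or more Slc4a1 counts, with log2 ratios of -1.33, -1.46, -0.83 and -0.81. Hk1 had -0.53, -0.30, -0.26 and -0.25, and Ndufa4l2 had -0.59, -0.67, -1.22 and -0.40. Among Kit-negative cells alone, Hk1 was in none of these sections lower at 5 or more Slc4a1 counts beyond counting error (given below).

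**Figure D2:**
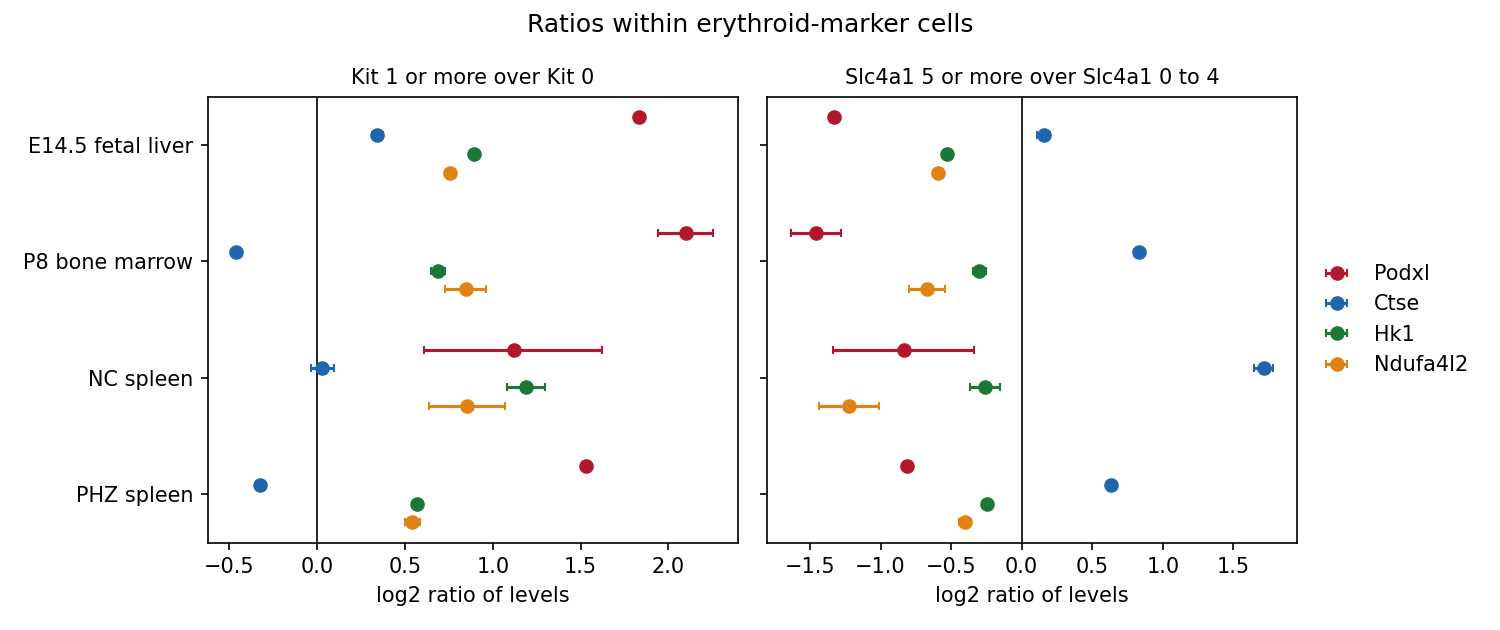
Log2 ratio of the level of each gene within erythroid-marker cells, for Kit-positive over Kit-negative cells (left) and for cells with 5 or more over 0 to 4 Slc4a1 counts (right), with exact 95% intervals of counting error; 1 section per row. Among the 4 sections of the 477-gene panel drawn, Podxl lies furthest to the right for Kit in all but NC spleen, and Ctse alone lies above 0 for Slc4a1.

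Kit-positive cells were deeper than Kit-negative cells, with a median of 212 against 159 transcripts in E14.5 liver and 168 against 123 in PHZ spleen. Markers of other cells also moved with Kit in some sections. The summed level of the 9 endothelial markers was 2.38-fold higher in Kit-positive erythroid-marker cells of PHZ spleen (17126 against 7207 CPM, 9 of 9 genes higher, none at 0), 1.97-fold in P8 marrow and 1.95-fold in NC spleen, but 1.00-fold in E14.5 liver (9218 against 9174 CPM, 4 of 9 genes higher). Among erythroid-marker cells without any endothelial-marker count, a choice made after seeing these values, Podxl was 3.66-fold higher in Kit-positive cells of E14.5 liver and 2.36-fold higher in those of PHZ spleen. The selection kept 8308 of 19544 Kit-positive cells in E14.5 liver and 1698 of 7065 in PHZ spleen. The depth of the cells kept was not compared. For Hk1 this selection gave 1.73-fold and 1.22-fold, against 1.86-fold and 1.48-fold in all erythroid-marker cells. The summed level of the 9 granulocyte markers was 2.01-fold higher in Kit-positive erythroid-marker cells of E14.5 liver (7407 against 3680.2 CPM, 7 of 9 genes higher, none at 0), 1.28-fold in P8 marrow, 0.969-fold in NC spleen and 1.14-fold in PHZ spleen, and its part in the Kit contrast was not tested. The summed level of the 13 macrophage markers in Kit-positive cells was 0.835 times that of Kit-negative cells in E14.5 liver and 1.04 times in PHZ spleen. For the 4 megakaryocyte markers on the panel it was 0.957 times in E14.5 liver, 1.10 in P8 marrow, 1.36 in NC spleen and 1.01 in PHZ spleen. Stromal markers were not summed by Kit, although stromal-marker cells had the highest Podxl level of the marker classes in E14.5 liver.

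In finer steps of Slc4a1, the Podxl level of E14.5 liver was 17500.0 CPM in erythroid-marker cells without a Slc4a1 count, 13542 with 1 to 4, 8486 with 5 to 9, 4873 with 10 to 19 and 4016 with 20 to 39. Kit had 11830.0 CPM in the cells without Slc4a1 and 1063 CPM at 20 to 39 Slc4a1 counts. Podxl therefore was lower at each further step over this range, as Kit was, though by a smaller factor. Above 39 Slc4a1 counts, in 362 cells with a median of 402.5 transcripts, Podxl stood at 4911 CPM. The median depth was 114 transcripts in the cells without Slc4a1.

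PHZ spleen had the same order, with Podxl at 15791 CPM without Slc4a1 and 6913 CPM at 20 to 39 counts. Ctse ran the other way in the same cells, from 31727 CPM to 70752 CPM. In P8 marrow Ctse had 17565 CPM in cells without Slc4a1 and 56829 CPM at 20 to 39 counts, whereas in E14.5 liver it was nearly level, with 2530.0 and 3128 CPM. The low Ctse level of the fetal liver was thus found at every Slc4a1 step and not in one class of erythroid-marker cells alone.

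**Figure D3:**
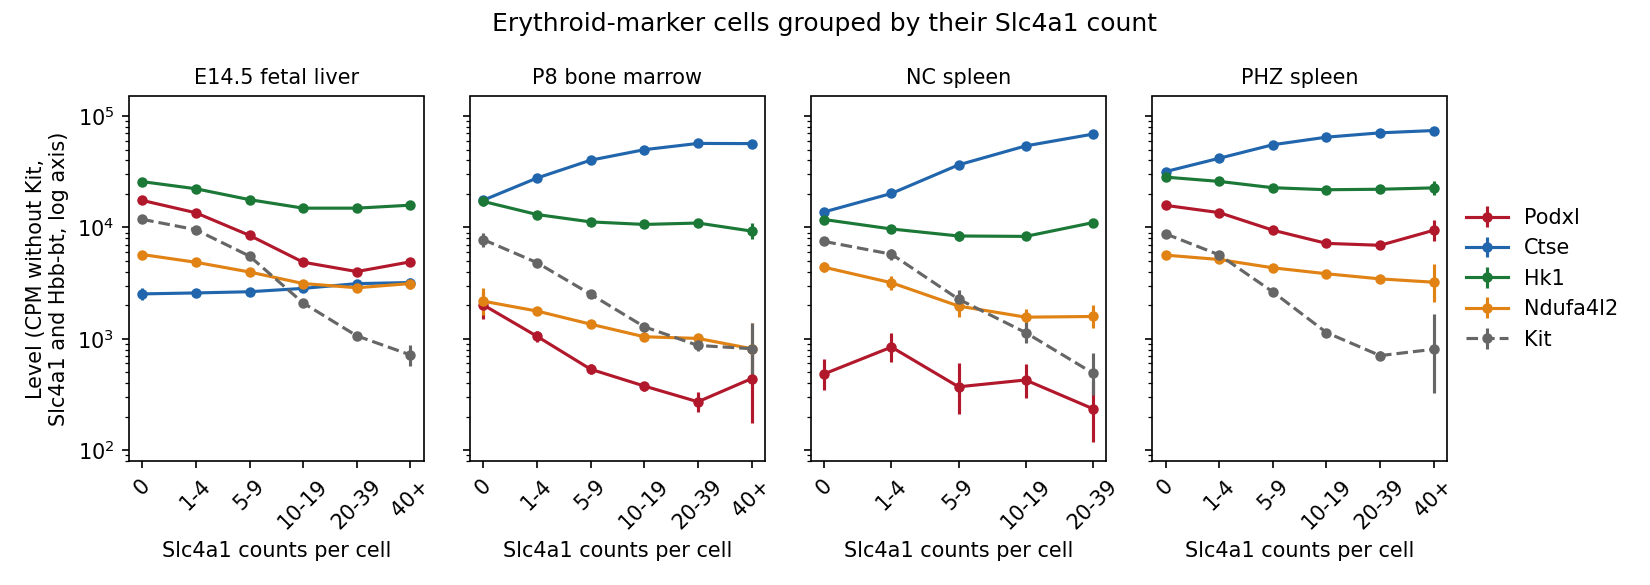
Level of the 4 genes and of Kit (dashed) in erythroid-marker cells grouped by their number of Slc4a1 counts, in CPM without Kit, Slc4a1 and Hbb-bt on a log axis, 1 panel per section, with exact 95% Poisson intervals. Podxl and Kit are lower, and Ctse is higher, in cells with 20 to 39 Slc4a1 counts than in cells with none.

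Kit and Slc4a1 were also used jointly. Podxl in E14.5 liver was 20207.5 CPM in Kit-positive cells with 0 to 4 Slc4a1 counts, 11879 CPM in Kit-positive cells with 5 or more, 6421 CPM in Kit-negative cells with 0 to 4 and 3668 CPM in Kit-negative cells with 5 or more. In PHZ spleen these levels were 23434, 16936.5, 8456 and 6382 CPM. In these 2 sections each marker hence separated Podxl within the classes of the other, and at these cutoffs Kit did so by more than Slc4a1. Whether this order holds at other cutoffs was not tested. In NC spleen, cells with 5 or more Slc4a1 counts had 358 CPM (155 to 705) of Podxl if Kit-positive, from 8 counts, and 353 CPM (263 to 463) if Kit-negative.

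For Hk1 in E14.5 liver and PHZ spleen, Kit separated the cells in both Slc4a1 classes, and Slc4a1 did so in Kit-positive cells alone. Among Kit-negative cells, those with 0 to 4 Slc4a1 counts were shallower. Their median was 88 against 166 transcripts in E14.5 liver and 66 against 143 in PHZ spleen. Ratios of level by Slc4a1 were not run on thinned cells. In NC spleen, Kit-negative cells had 6287 CPM (5785 to 6821) of Hk1 at 0 to 4 Slc4a1 counts and 8725 CPM (8255 to 9216) at 5 or more. Those of P8 marrow had 10583 CPM (10180 to 10999) and 10194 CPM (10055 to 10335), with overlapping intervals. In Kit-negative cells of E14.5 liver Hk1 had 13265 CPM (12998 to 13536) at 0 to 4 Slc4a1 counts and 13376 CPM (13306 to 13445) at 5 or more, and in PHZ spleen 21157 and 21024 CPM, again with overlapping intervals. Kit-positive cells had 30494 and 23319.9 CPM in E14.5 liver and 35179.8 and 28757 CPM in PHZ spleen. Ndufa4l2 was highest in Kit-positive cells with few Slc4a1 counts (6108 CPM in E14.5 liver and 6386 in PHZ spleen) and lowest in Kit-negative cells with many (2879 and 3747 CPM). For Ctse in PHZ spleen the lowest level, 38823 CPM, was in Kit-positive cells with 0 to 4 Slc4a1 counts and the highest, 63763 CPM, in Kit-negative cells with 5 or more. In Kit-positive cells of E14.5 liver Ctse was 3275 CPM (3152 to 3402) at 0 to 4 Slc4a1 counts. At 5 or more it was 3405 CPM (3339 to 3471). In Kit-negative cells these levels were 1773 and 2721 CPM. In NC spleen they were 31039 and 50839 CPM in Kit-positive and 9556 and 54238.5 CPM in Kit-negative cells. Of the NC cells without Kit and with 0 to 4 Slc4a1 counts, 12.1% had a Klf1 count. The part of this in the NC spleen ratios by Kit and Slc4a1 was not tested.

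The larger panel gave few counts for this contrast. It held 4 of the 9 erythroid genes, so its erythroid class was not the same as in the other sections. No class was given to 42.5% of cells in E13.5 liver and 71.3% in 89-week marrow. In E13.5 liver, with 91 Kit-positive erythroid-marker cells, the log2 ratio of Kit-positive over Kit-negative cells was 0.61 (0.18 to 1.01) for Podxl and 0.66 (0.28 to 1.02) for Hk1. In 89-week marrow, Podxl rested on 6 and 20 counts, with a log2 ratio of 2.49 (0.89 to 3.86), and the Hk1 ratio of 0.15 had an interval from -0.10 to 0.40. The 8 endothelial markers on this panel were together 2.95-fold higher in the same Kit-positive cells (8 of 8 genes higher), and their part in the Podxl ratio was not tested. In E13.5 liver they were at 0.497 times, with Sox17 at 0. Over all counts, where depth was not equal, the co-detection ratio of Podxl with Kit was 3.10 in E13.5 liver and 2.87 in 89-week marrow. Thinning to 50 transcripts left out 388 cells of E13.5 liver and 58188 of 89-week marrow. No cell of E13.5 liver and 1 cell of 89-week marrow then had both Podxl and Kit, so their co-detection could not be read at this depth. For Hk1 with Kit in 89-week marrow, thinning took the ratio from 3.10 to 0.980, with 13 cells holding both.

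Among themselves the 4 genes did not form 1 pattern over the sections. In E14.5 liver and PHZ spleen every pair was found together more often than independent detection would give. In thinned cells of E14.5 liver the ratios ran from 1.09 for Ctse and Ndufa4l2 to 1.42 for Podxl and Ndufa4l2. In thinned cells of PHZ spleen, Podxl and Hk1 were found together 1.51 times as often as independent detection would give (also 1.51 over all counts), Podxl and Ctse 1.38 times (1.41) and Ctse and Ndufa4l2 1.06 times (1.20). In NC spleen Podxl and Ctse were together 0.597 times as often (0.932 over all counts), and in P8 marrow 0.723 times (0.859). Ctse and Ndufa4l2 were at 0.652 in P8 marrow (0.778). The lowest pair of the adult spleen and the lowest of the marrow thus both included Ctse.

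The marker classes were not used to choose the genes, but their lists were chosen with earlier results of these data known. They showed where else each gene was found. Podxl in NC spleen had 6442 CPM in endothelial-marker cells, which held 47.0% of its counts, and 3596 CPM in mural-marker cells, but 476 CPM in erythroid-marker cells. The latter was close to the level in macrophage-marker cells (381 CPM). P8 marrow had the same order of levels, with 7628 CPM in endothelial-marker and 499 CPM in erythroid-marker cells. There, however, endothelial-marker cells held 9.08% of the counts, erythroid-marker cells 35.8% and stromal-marker cells 32.9%. In 89-week marrow the levels on the other panel, whose erythroid class rested on 4 of the 9 genes, were 541 and 11.2 CPM. Cells without a class held 57.6% of the counts in that section. In E14.5 liver, stromal-marker cells (10392 CPM) and endothelial-marker cells (9404 CPM) were above erythroid-marker cells (6320.5 CPM), although the last held 87.1% of the counts. In the PHZ spleen alone among the 4 sections of the 477-gene panel, erythroid-marker cells had the highest Podxl level, 9105 CPM against 5144 CPM in endothelial-marker cells.

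Ctse had its highest level in erythroid-marker cells in every section that measured it. Its level in erythroid-marker cells was 2843 CPM in E14.5 liver, 45378 in P8 marrow, 37218 in NC spleen and 57981 in PHZ spleen. The next class was macrophage-marker cells at 12388 CPM in P8 marrow and granulocyte-marker cells at 7725 CPM in PHZ spleen. Erythroid-marker cells held 96.6% of Ctse counts in E14.5 liver, 93.4% in P8 marrow and 92.5% in PHZ spleen, but 37.2% in NC spleen, where they were few. Macrophage-marker cells of NC spleen held 36.9%, at 2550 CPM.

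Hk1 was shared by erythroid- and megakaryocyte-marker cells. Megakaryocyte-marker cells had 23808 CPM in E14.5 liver and 17462 CPM in P8 marrow, above the 16269.9 and 11178 CPM of erythroid-marker cells. In NC spleen both were close, at 9637 (9135 to 10158) and 9921 (9571 to 10281) CPM, and in PHZ spleen erythroid-marker cells were higher, at 22967 against 17700.2 CPM. Lymphoid-marker cells of NC spleen had 6945 CPM and cartilage- or muscle-marker cells of P8 marrow 1538 CPM.

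Ndufa4l2 was not highest in erythroid-marker cells outside the PHZ spleen. In P8 marrow its level was 5939 CPM in cartilage- or muscle-marker cells, which held 37.8% of its counts, and 1218 CPM in erythroid-marker cells. In NC spleen it was 3068 CPM in monocyte- or dendritic-marker, 3039.7 CPM in lymphoid-marker and 2661 CPM in erythroid-marker cells. In E14.5 liver granulocyte-marker cells (3571 CPM, 3382 to 3768) and erythroid-marker cells (3428 CPM, 3399 to 3458) did not differ beyond counting error, and in PHZ spleen erythroid-marker (4206 CPM) and megakaryocyte-marker cells (4133 CPM) did not either.

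**Figure D4:**
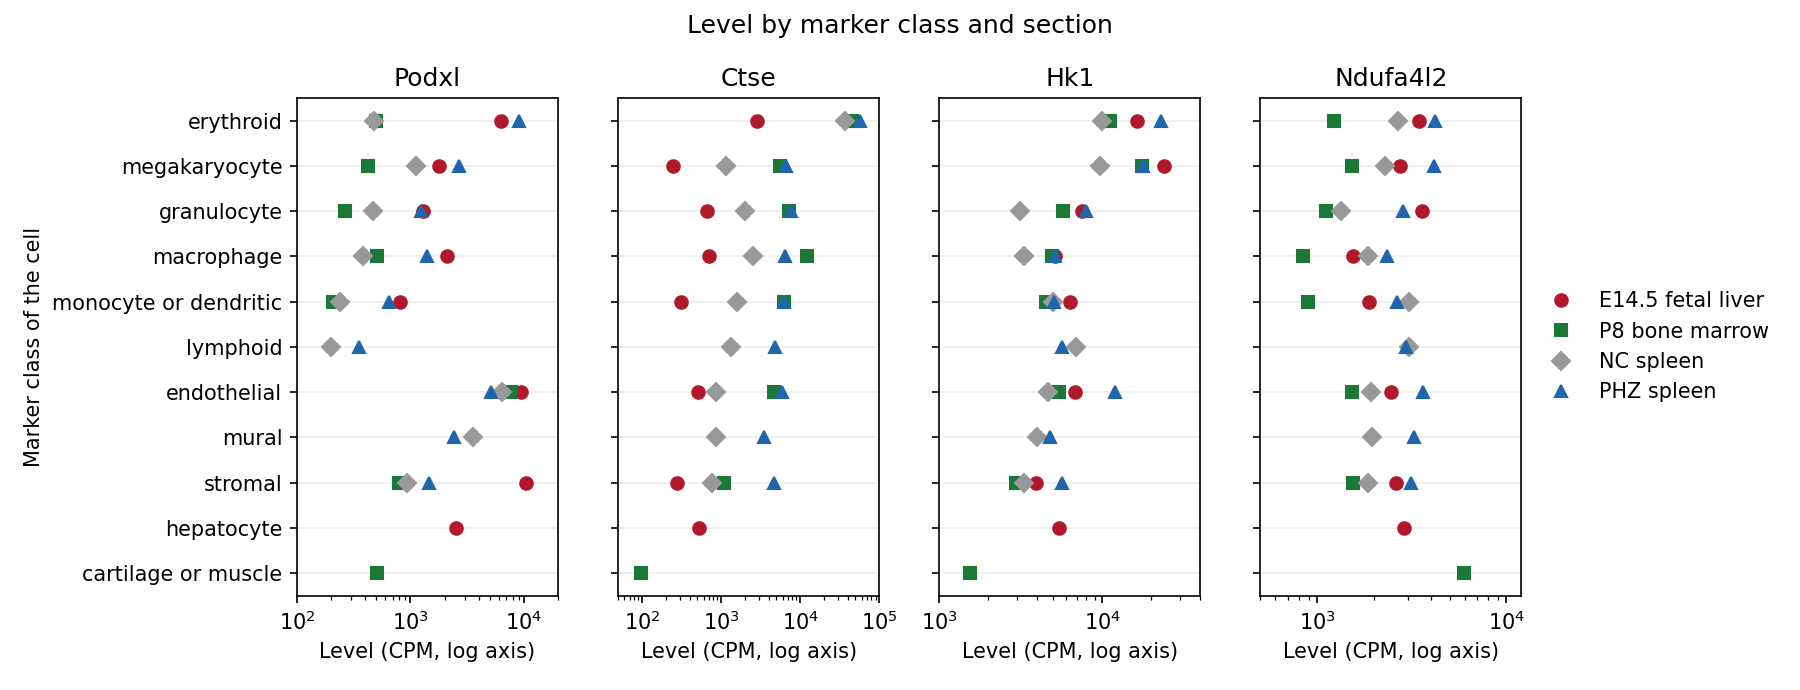
Level of each gene in each marker class of cells (rows) and section (symbols), in CPM without Kit, Slc4a1 and Hbb-bt on log axes that differ between panels; classes of fewer than 100 cells are not drawn. Podxl is high in endothelial-marker cells of all sections and in erythroid-marker cells of E14.5 liver and PHZ spleen, Ctse is highest in erythroid-marker cells, and Ndufa4l2 is highest in cartilage- or muscle-marker cells of P8 marrow.

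Against the NC spleen, the PHZ spleen had 7.03 times the level of Podxl (766 and 5385 CPM), 11.2 times that of Ctse (2942 and 32865 CPM), 3.16 times that of Hk1 and 1.40 times that of Ndufa4l2. Of the 4 genes, 3 were at least 2-fold higher and 0 at least 2-fold lower, where 12.9% of the 472 genes with at least 100 counts over both spleens were at least 2-fold higher and 27.5% at least 2-fold lower. Since the genes were chosen with this contrast, nothing is read from that count. Over the whole section, Kit was at 0.995 times and Slc4a1 at 11.2 times its NC level. The classes that held the Kit counts were not the same, however. Erythroid-marker cells held 5.63% of Kit counts in NC and 67.8% in PHZ spleen, at 3697 and 2487 CPM. Macrophage-marker cells held 36.2% and 12.1%, and monocyte- or dendritic-marker cells 32.7% and 2.64%. In the sum over a section, more cells of a type and more RNA per cell cannot be told apart, and each spleen was 1 animal's section.

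The 2 spleens differed in make-up. Erythroid-marker cells numbered 2593 in NC and 49070 in PHZ spleen. The summed level of the 9 erythroid markers was 8.25 times as high in PHZ spleen with 9 of 9 genes at least 2-fold higher, that of the 8 lymphoid markers 0.192 times as high with 7 of 8 genes at least 2-fold lower, and that of the 9 endothelial markers 0.657 times as high with 6 genes at least 2-fold lower. The 13 macrophage markers were together 0.687 times as high with 4 genes at least 2-fold lower, and the megakaryocyte markers 0.802 times as high with 1 of 4 tested genes higher and 1 lower. Over all 472 genes, 12.9% were at least 2-fold higher and 27.5% at least 2-fold lower.

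Within erythroid-marker cells, the genes came apart. Podxl was 476 CPM in NC and 9105 CPM in PHZ spleen, a 19.1-fold difference that was larger than in the whole section, and corresponded to 0.0559 against 1.11 counts per cell. Ctse was 37218 and 57981 CPM, a 1.56-fold difference, or 4.37 against 7.08 counts per cell. The erythroid-marker cells of the NC spleen hence already held much Ctse and hardly any Podxl. Hk1 was 2.31-fold and Ndufa4l2 1.58-fold higher in level within these cells.

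The erythroid-marker cells of both spleens could differ in stage, so they were also split by Kit and Slc4a1. Podxl was 23.5-fold higher in PHZ than in NC spleen among Kit-positive, 17.6-fold among Kit-negative, 22.2-fold among cells with 0 to 4 Slc4a1 counts and 22.4-fold among cells with 5 or more. The NC side of these rested on between 54 and 91 Podxl counts. Ctse in the same 4 splits was 1.27-fold, 1.63-fold, 2.45-fold and 1.16-fold higher. Hk1 lay between 1.76-fold and 2.70-fold and Ndufa4l2 between 1.34-fold and 2.36-fold.

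The erythroid class itself was not alike in both spleens. Of the 2593 cells of NC spleen, 1253 had no Kit count and 0 to 4 Slc4a1 counts, and of these 12.1% had a Klf1, 10.3% a Gata1 and 9.82% an Epor count. In the same class of PHZ spleen, at a similar depth (a median of 66 against 69 transcripts), these shares were 60.6%, 51.6% and 39.4%. Ctse in this class was 9556 CPM in NC and 40978 CPM in PHZ spleen. The part of this difference in make-up in the PHZ over NC ratios of the 4 genes was not tested.

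Outside the erythroid class, Podxl was 2.00-fold, Ctse 3.27-fold, Hk1 1.37-fold and Ndufa4l2 1.15-fold higher in PHZ spleen. Endothelial-marker cells had 0.798 times the Podxl level of NC spleen but 6.80 times the Ctse, 2.59 times the Hk1 and 1.89 times the Ndufa4l2 level. Macrophage-marker cells had 3.71 times the Podxl, 2.496 times the Ctse, 1.55 times the Hk1 and 1.27 times the Ndufa4l2 level, and lymphoid-marker cells had 1.77 times the Podxl and 3.59 times the Ctse level (1324 and 4755 CPM) with 0.817 times the Hk1 and 0.970 times the Ndufa4l2 level. Higher levels outside the erythroid class were thus found for all 4 genes in some of these classes, in the section where erythroid-marker cells were the majority. The part of neighbouring cells in these counts was not tested. The erythroid-marker cells held 1.83% of Podxl counts in NC and 88.7% in PHZ spleen, while for Ndufa4l2 these shares were 3.36% and 67.7%.

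**Figure D5:**
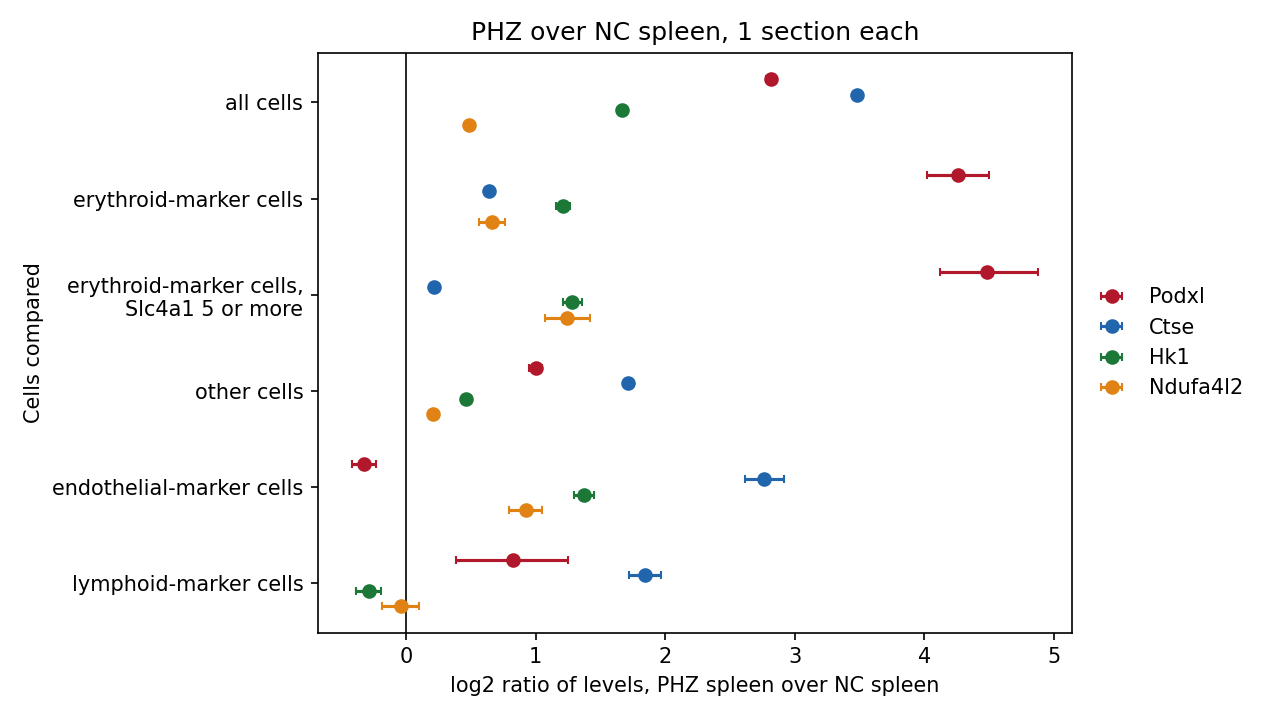
Log2 ratio of the level in PHZ spleen over NC spleen for each gene, over all cells (CPM of all gene counts) and within classes of cells (CPM without Kit, Slc4a1 and Hbb-bt), with exact 95% intervals of counting error from 1 section each. Ctse lies furthest to the right over all cells but near 0 in erythroid-marker cells with 5 or more Slc4a1 counts, where Podxl is furthest to the right.

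The genes of the erythroid program were read beside them. Of 21 such genes, 17 were at least 2-fold higher in PHZ spleen and 0 at least 2-fold lower, where 12.9% and 27.5% of all genes were, with a median log2 ratio of 3.10, against -0.45 over all 472 genes. Plek2, a cytoskeleton-associated protein, had a log2 ratio of 6.24. The erythroid transcription factors Klf1 and Gata1 had 4.16 and 4.03. Kit (-0.01), Cd36 (0.04), Selenbp1 (0.97) and Slc14a1 (0.97) were the 4 that stayed under 2-fold. With log2 ratios of 2.81 for Podxl, 3.48 for Ctse, 1.66 for Hk1 and 0.48 for Ndufa4l2, Ctse lay above the median of this list and the other 3 below it.

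All 4 proliferation genes were at least 2-fold higher, against 12.9% of all genes, with log2 ratios of 3.24 for Ube2c, 2.65 for Cenpf, 2.36 for Diaph3 and 1.75 for Stmn1. Of 20 genes of energy metabolism and hypoxia, 10 were on the panel, of which 0 were at least 2-fold higher and 4 at least 2-fold lower, where 12.9% and 27.5% of all 472 genes were, with a median log2 ratio of -0.85 against -0.45 over all genes. The 4 lower genes were Pck1 (-4.17), a gluconeogenic enzyme, Cox8b (-2.86), a subunit of cytochrome oxidase, Ppargc1a (-2.24), a coactivator of mitochondrial genes, and Ldhb (-1.32), a lactate dehydrogenase subunit. Cox8b rested on 171 counts in NC and 26 in PHZ spleen, where the highest of 20 negative control probes had 77 and 76 counts. Its ratio therefore lies near the floor of the method. Pck1 had 1976 and 121 counts. Vegfa, a target of HIF-1 like Ndufa4l2, had -0.53, and Ndufs8, a subunit of mitochondrial complex I, had 0.06. Hk1 and Ndufa4l2, which were not on this list, both lay above its median.

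Position in the tissue was read from tiles of 50 µm with at least 10 cells, as Pearson's r of log2(CPM + 100) between genes. Tiles share their section and vary in cell make-up and depth, so r is a description. In E14.5 liver, with 2615 tiles and 292 genes, the genes most like Podxl were Tmem147 (r = 0.60), Itgb1 (0.52) and Cndp2 (0.51), and its r with Kit was 0.39, against -0.09 with Ctse and -0.19 with Slc4a1. Ctse was most like Epor, the erythropoietin receptor (0.69), Prx (0.67) and Fech, the ferrochelatase of haem synthesis (0.66), with r = 0.01 for Kit. Hk1 was most like Slc14a1 (0.77), Klf1 (0.76) and Epor (0.73). Ndufa4l2 was most like Ndufs8 (0.52), Stmn1 (0.52) and Tmem147 (0.43).

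In PHZ spleen, with 2597 tiles and 273 genes, all but Ndufa4l2 went closely with erythroid genes. Podxl was most like Epor (0.78), Prx (0.77) and Hk1 (0.77). Unlike in E14.5 liver, its r was higher with Ctse (0.68) and Slc4a1 (0.64) than with Kit (0.33). Ctse was most like Fech (0.94) and Hemgn (0.93), and Hk1 was most like Gata1 (0.90), Klf1 (0.89) and Fech (0.88). Ndufa4l2 reached 0.45 with Hk1, 0.42 with Epor and 0.41 with Podxl. Over tiles of this section Podxl had a median of 4644 CPM, with 274 CPM at the 10th and 10649 CPM at the 90th percentile, and Ctse had 35828, 2748 and 54966 CPM, so that parts of the section held little of either. In NC spleen, with 1752 tiles and 293 genes, Hk1 had r = 0.01 with Klf1, -0.14 with Epor and -0.12 with Slc4a1, and was most like Slc14a1 (0.59). Slc14a1 is on the erythroid list, but 21.3% of cells of this section had a count of it, where 2.39% were erythroid-marker cells. In P8 marrow the gene most like Podxl was Tie1 (0.58), a receptor of endothelial cells, and in NC spleen it was Tie1 as well (0.66).

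Around Kit-positive erythroid-marker cells, Podxl was also measured in the Kit-negative erythroid-marker cells nearby. In PHZ spleen it was 7880 CPM (7734 to 8027) in those within 10 µm of a Kit-positive cell, 6429 CPM at 10 to 20 µm, 5951 CPM at 20 to 40 µm and 3791 CPM (3386 to 4232) beyond. In this section Podxl was thus lower with distance, while Ctse was 58863, 60673, 61753 and 54482 CPM. Hk1 (22092, 20743, 20585 and 17453 CPM) was lower with distance there too. Ndufa4l2 had 4024 CPM (3921 to 4130), 3847, 3749 and 3553 CPM (3161 to 3980), so that its first and last rings overlapped. In NC spleen Podxl was 292, 389, 515 and 315 CPM, from 9 to 32 counts per ring. In E14.5 liver Podxl was 4225 CPM (4173 to 4278) within 10 µm and 3421 and 3428 CPM in the next 2 rings, but 4305 CPM (3575 to 5140) in the 251 cells beyond 40 µm. Hk1 (14022, 12796, 11945.5 and 8645 CPM) and Ndufa4l2 (3080, 2797, 2483 and 1905 CPM) were lower with distance in this liver. In P8 marrow Podxl was 407, 298, 292 and 154 CPM, the last from 5 counts, and Hk1 was 10922, 9960, 9831 and 6852 CPM. Median depth was 121, 125, 122 and 95 transcripts per cell over the rings of PHZ spleen. Cells within 10 µm can touch, and the part of transcripts assigned to a neighbour was not tested.

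The share of transcripts lying over a nucleus was another measure that the choice of genes did not use. For Ctse it was 64.8% in E14.5 liver, 67.5% in P8 marrow, 62.1% in NC spleen and 60.6% in PHZ spleen, above the medians over genes of 54.9%, 48.1%, 58.9% and 50.9%. Podxl had 57.4%, 50.1%, 54.9% and 62.5%. Ndufa4l2 was lowest in P8 marrow with 36.6% and highest in NC spleen with 59.0%, and Hk1 ranged from 53.1% to 62.5%. In a thin section a transcript over a nucleus may lie above or below it.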

How the data were processed

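Sections of 6 conditions were imaged with Xenium, 1 section each. The deposited matrices hold raw counts of decoded transcripts per gene and cell, made by the authors with the instrument's software (Xenium 1.7.1.0 for 4 sections, 3.1.0.4 for E13.5 liver and 89-week marrow). The study's methods name Space Ranger. A genome build is not given in the sources used here. Cell positions in µm and a flag for transcripts over a nucleus (other values) were deposited beside them. In the transcript tables the authors gave each molecule a quality score, and molecules with a score of at least 20 inside kept cells summed to the matrix counts of the 4 genes, Kit and Slc4a1 with a difference of 0.

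The filters dropped a cell below 5 detected genes and a gene seen in under 3 cells. Levels of sections are CPM over all gene counts, and levels of marker classes and of cells split by Kit or Slc4a1 leave Kit, Slc4a1 and Hbb-bt out of the total. Each cell went to the marker list with the highest summed count of at least 3, and doublets were not removed. Intervals are exact Poisson, conditional binomial for ratios and Clopper-Pearson for shares, at 95%, and cover counting error only. The code was tested on simulated data (Python 3.11.15, NumPy 2.4.6, SciPy 1.17.1, pandas 2.3.3, matplotlib 3.10.9). No test between conditions was possible. Genes named are the 4 genes, Kit, Slc4a1, those of the erythroid, proliferation and energy lists, and for each of the 4 the 3 genes most like it over tiles in E14.5 liver and PHZ spleen. Tie1 was named after its values were seen. Some genes that this rule would name are not reported here. The 4 genes and all lists were chosen with earlier results of these data known. Alternatives were another denominator, a higher minimum of counts per cell, nuclear transcripts, erythroid-marker cells alone, 2 Kit counts, all cells and thinned cells.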

Additional observations from a re-analysis of the deposited data

How the results depend on the processing

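No section had a replicate, so an alternative is set against the counting interval of the value it replaces, and no PHZ over NC log2 ratio, and no Kit-positive over Kit-negative one of E14.5 liver or PHZ spleen, the sections for which alternatives were run, changed sign. Co-detection ratios in NC spleen did cross 1 on thinning, with Slc4a1 from 1.27 to 0.854 for Podxl, 1.12 to 0.890 for Hk1 and 1.04 to 0.745 for Ndufa4l2, with Kit from 1.26 to 0.988 for Ctse, 1.17 to 0.980 for Hk1 and 1.18 to 0.963 for Ndufa4l2, and between members from 1.20 to 0.965 for Ctse with Ndufa4l2, 1.21 to 0.992 for Podxl with Hk1 and 1.13 to 0.847 for Podxl with Ndufa4l2. Elsewhere on this panel thinning took Ctse with Kit in PHZ spleen from 1.16 to 1.00, Hk1 with Ndufa4l2 in P8 marrow from 1.11 to 0.941, and, in E14.5 liver with Slc4a1, Ndufa4l2 from 1.00 to 0.957 and Hk1 from 1.01 to 0.999. The log2 ratios of PHZ over NC spleen for Podxl, Ctse, Hk1 and Ndufa4l2, in that order, were 3.15, 3.82, 2.00 and 0.82 as counts per cell, 2.93, 3.59, 1.77 and 0.60 with Hbb-bt and Slc4a1 left out of the total, and 3.21, 3.66, 1.64 and 0.33 from transcripts over a nucleus. Within erythroid-marker cells, over all gene counts, they were 4.21, 0.59, 1.16 and 0.61. In 2 alternatives chosen after seeing the data they were 4.49, 0.21, 1.28 and 1.24 in erythroid-marker cells with 5 or more Slc4a1 counts, and 0.98, 1.69, 0.44 and 0.18 outside the erythroid class. A minimum of 20 counts per cell left all 4 within their intervals.

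The Kit-positive over Kit-negative log2 ratios in E14.5 liver, in the same order of genes, were 2.20, 0.46, 1.17 and 1.00 with at least 2 Kit counts, 1.60, 0.31, 0.82 and 0.71 over all cells, and 1.71, 0.28, 0.94 and 0.79 after thinning to 50 transcripts. In PHZ spleen they were 1.89, -0.49, 0.78 and 0.72 with at least 2 Kit counts, and for Podxl, Ctse and Hk1 1.71, -0.10 and 0.75 over all cells and 1.40, -0.37 and 0.64 after thinning, while Ndufa4l2 stayed within its interval under both. Without cells that had an endothelial-marker count, chosen after seeing the data, they were 1.87, 0.26, 0.79 and 0.62 in E14.5 liver and 1.24, -0.19, 0.28 and 0.31 in PHZ spleen. No paired analysis was possible because each condition had 1 section. Of the genes measured there, Podxl rested on the fewest counts, with 145 in the erythroid-marker cells of NC spleen and 26 in those of 89-week marrow.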
